A study of Oryza sativa with 2 samples.

Results

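Expansins and cell wall growth genes were examined in whole seedlings of rice (Oryza sativa) after exposure to carbon ions, heavy charged particles from the HIMAC accelerator that ionize densely along their track. Members were the probes with 1 gene whose symbol or synonym belongs to the expansins (EXPA, EXPB and expansin-like EXLA), the cellulose synthases (CESA), the cellulose synthase-like proteins (CSL) or the xyloglucan endotransglucosylase/hydrolases (XTH). The rule gave 66 probes of 53 genes, out of 22574 probes measured by both arrays. Of those, 17839 were assigned to a single gene, for 15798 genes in all. All 66 had a value on both arrays, and no filter on low values was applied. Expansins held 32 probes, CSL genes 20, CESA genes 13 and XTH genes 1.

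Irradiated seedlings were grown for 7 days on MS medium and exposed for 2 h 35 min. Control seedlings were of the same age and medium and were not irradiated. No source used here states the dose, the cultivar or the time from exposure to harvest. The 2 arrays compared the same pair of extracts with the dyes swapped, which made 1 replicate per group. No difference below therefore has a replicate check or a p-value, and the gap between the arrays measures technical error only.

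Values are normalized log2 ratios, irradiated over control, first for the array with irradiated RNA in Cy5 ("first array") and then for the array with the dyes exchanged ("swapped array"). A negative value means less transcript in irradiated seedlings. The direction is likely and not certain, since it rests on reading the deposited ratios as Cy5 over Cy3. If they were Cy3 over Cy5, every sign below would turn. Brightness is an estimated spot intensity in scanner units, recovered from the ratios, and is used here to judge precision and not to compare the levels of genes. In whole seedlings, fewer cells of a type and less RNA per cell cannot be told apart.

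Plant cells grow by yielding of the wall under turgor while new wall is laid down. Alpha-expansins (EXPA) and beta-expansins (EXPB) loosen the contacts between wall polysaccharides without cutting them, while XTH enzymes cut and rejoin xyloglucan chains. CESA proteins form the complexes that spin cellulose at the plasma membrane. CSL proteins make other polysaccharides of the wall, among them mannans (CSLA), the xyloglucan backbone (CSLC) and, in grasses, the mixed-linkage glucan typical of their walls (CSLF and CSLH). Grasses carry many beta-expansins, some of them active in leaves and stems and others in pollen.

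No member passed 2-fold on both arrays, and for most members the arrays disagreed in sign. Of the 66 member probes, 0 were at least 2-fold lower and 0 at least 2-fold higher on both arrays, where 0.270% and 1.91% of all probes were. At 1.5-fold on both arrays, 0 members were lower and 1 was higher, against 1.62% and 3.77% of all probes. The median over the members was -0.11, with quartiles of -0.35 and 0.05, beside a median of -0.01 and quartiles of -0.23 and 0.22 over all probes. The mean of the arrays was below 0 for 45 of 66 members, or 68.2%, against 50.9% of all probes.

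Counting probes that pointed the same way on both arrays, whatever the size, 20 members were lower and 4 were higher, while the arrays opposed each other for the other 42. These are 30.3% and 6.06% of the members, where 22.3% of all probes were lower on both arrays and 22.5% were higher. Per probe, the share that was lower thus lay near the background, and the share that was higher lay below it. With arrays centred on their medians in place of the intensity trend, so that a dye trend stays in each array, 5 members were lower and 3 higher on both arrays, against 8.97% and 8.97% of all probes, and the median over the members was -0.15. The 5 were EXPB7, CESA5, CESA7, CSLA5 and CSLA7, and the 3 were CSLF2, the dimmer EXPA10 probe and a CESA2 probe. CSLA7 and the CESA2 probe had opposed arrays with the intensity trend, so their agreement is new. Only EXPB7, CESA5, CESA7, CSLA5, CSLF2 and the dimmer EXPA10 probe kept their agreement in sign without the trend. Counted per gene, 20 of 53 genes were lower on both arrays and 2 were higher, where 23.2% and 23.1% of all genes were. The lower share thus lay further above its background per gene than per probe, and neither was tested.

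**Figure D1:**
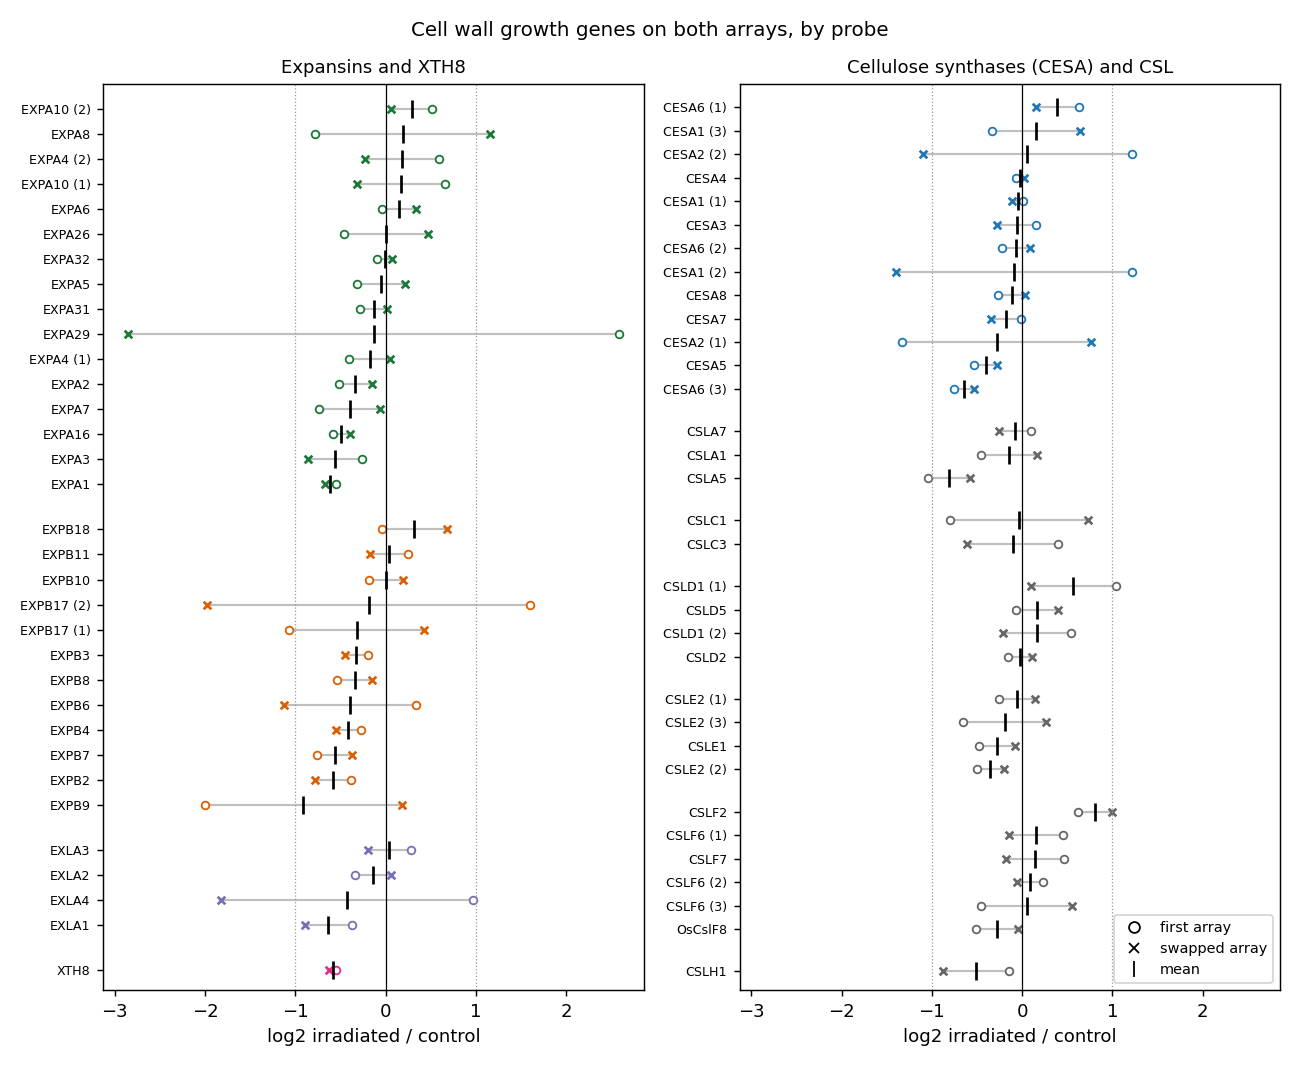
Each line is 1 probe and the horizontal axis gives log2 irradiated over control, with an open circle for the first array, a cross for the swapped array and a black bar for their mean. Dotted lines mark 2-fold, and numbers in brackets rank the probes of a gene by brightness. XTH8, EXLA1, EXPB2, EXPB3 and EXPB7 lie left of 0 on both arrays, while the probes of EXPA29 and EXPB17 have arrays far apart on opposite sides.

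XTH8, the only XTH member, whose transcript is known in rice to respond to gibberellin, was lower on both arrays by nearly the same amount. Its spot was the brightest of the members, with an estimated intensity of 11248 units, above 99.5% of probes. The deposited log10 ratio was 0.27 on the first array and 0.84 with the dyes swapped. Over all probes the deposited medians also rose, from 0.05 to 0.20, so a larger value with the dyes swapped is not particular to XTH8. After normalization XTH8 stood at -0.55 and -0.63, a mean of -0.59 or 1.5-fold lower, and the arrays differed from their mean by 0.04. That mean lay at percentile 3.99 of the brightest decile of probes. With median centring XTH8 stood at 0.71 and -2.11, a mean of -0.70, so its arrays then opposed each other.

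Among the subfamilies with over 5 probes, beta-expansins had the lowest median and the largest share of probes lower on both arrays. Of the smaller subfamilies, CSLE had a larger share, with 2 of its 4 probes lower on both arrays. The single probes of CSLH and XTH were lower as well. The 12 beta-expansin probes of 11 genes had a median of -0.33 and ran from -0.91 to 0.32. On both arrays 5 of the 12 were lower (EXPB2, EXPB3, EXPB4, EXPB7 and EXPB8), and 0 were higher, or 41.7% and 0%, beside 22.3% and 22.5% of all probes. With median centring only EXPB7 of the 12 was lower on both arrays, at -0.48 and -0.96, and the arrays of EXPB2, EXPB3, EXPB4 and EXPB8 opposed each other. EXPB2 stood at -0.38 and -0.79, a mean of -0.58 or 1.5-fold lower. EXPB7 stood at -0.76 and -0.37, a mean of -0.56.

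Some of the lower values came from brighter spots. EXPB3, a beta-expansin known from growing rice internodes, had a bright spot of 2618 units and stood at -0.20 and -0.45, a mean of -0.32. The 6 beta-expansin probes above the median intensity of all probes, which was 200.1 units, had a median of -0.36. The lowest mean belonged to EXPB9, of the pollen type, at -2.0 and 0.18. Its arrays disagreed in sign and its spot was dim at 80.2 units, so the mean of -0.91 rests on the first array.

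EXPB10, another pollen-type gene, stood at -0.19 and 0.19, a mean of 0.002. EXPB11 stood at 0.24 and -0.18, a mean of 0.03. The highest was EXPB18 at -0.04 and 0.68, a mean of 0.32. Arrays of these probes pointed opposite ways, as did those of both EXPB17 probes at -1.07 and 0.43 for the brighter and 1.60 and -1.98 for the dimmer. Each array of the dimmer EXPB17 probe was past 3-fold, in opposite directions, while their mean was -0.19.

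Several beta-expansins sit side by side in the genome. In the gene order of the RefSeq assembly, EXPB6, EXPB2, EXPB3 and EXPB4 follow each other with 0 genes between them, and EXPB8 and EXPB7 have 1 gene between them. All 6 had a mean below 0, as 50.9% of all probes did. EXPB6 stood at 0.34 and -1.12, a mean of -0.39, and its arrays disagree in sign. EXPB4 stood at -0.28 and -0.55, a mean of -0.41, and EXPB8 at -0.54 and -0.15, a mean of -0.34. Neighbouring copies can be alike in sequence and may share probe signal. The probe sequences were not used here, so these 6 values cannot be taken as 6 separate observations.

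The neighbouring CSL pair had means of opposite sign. OsCslF8 and CSLF2 have 1 gene between them, and both belong to the family that makes mixed-linkage glucan. CSLF2 stood at 0.62 and 1.0, a mean of 0.81 or 1.75-fold higher, and was the member at least 1.5-fold higher on both arrays. It also came closest to 2-fold among members whose arrays agreed. With median centring CSLF2 stood at 0.06 and 1.43, so its first array was then short of 1.5-fold. OsCslF8 stood at -0.51 and -0.05, a mean of -0.28. Their spots were dim, at 151.2 units for CSLF2 and 98.2 for OsCslF8.

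**Figure D2:**
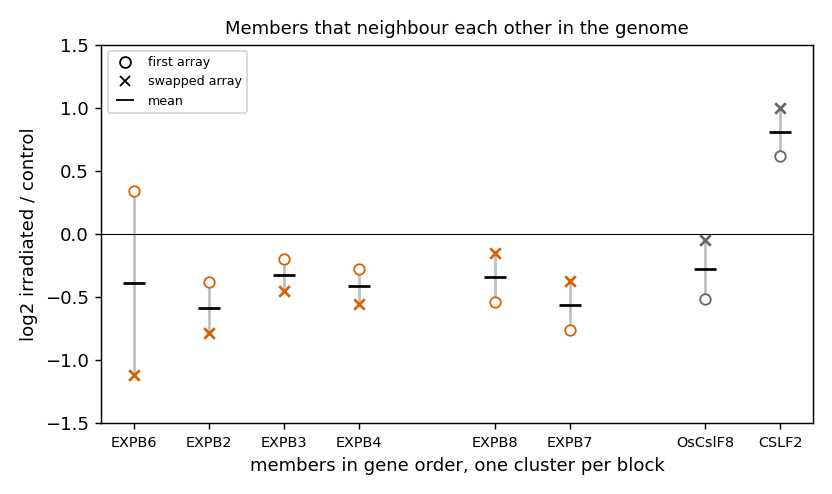
The vertical axis gives log2 irradiated over control for members that neighbour each other in gene order, with an open circle for the first array, a cross for the swapped array and a bar for their mean. All 6 beta-expansin means lie below 0, from -0.58 for EXPB2 to -0.32 for EXPB3, while CSLF2 lies above 0 at 0.81 and OsCslF8 below it at -0.28.

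Alpha-expansins, the main wall-loosening proteins of growing cells, were divided. Their 16 probes of 14 genes had a median of -0.09, from -0.61 to 0.29, with 5 lower and 1 higher on both arrays. These are 31.25% and 6.25%, beside 22.3% and 22.5% of all probes. The brightest was EXPA2 at 722.8 units, which stood at -0.51 and -0.16, a mean of -0.33. EXPA3 stood at -0.26 and -0.86, a mean of -0.56. EXPA16 stood at -0.58 and -0.39, a mean of -0.49, and EXPA7 at -0.74 and -0.06, a mean of -0.40.

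EXPA1 had the lowest mean of the subfamily, but its value depends on the intensity trend. It stood at -0.55 and -0.67, a mean of -0.61, with arrays only 0.06 from their mean. The deposited ratio on the swapped array was exactly 1 (a log10 of 0), from which little of the intensity can be recovered. With median centring the mean of EXPA1 was 0.01, so its place among the lower genes is not settled.

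EXPA10 was the alpha-expansin that was higher on both arrays, and only by its dimmer probe, at 0.52 and 0.06, a mean of 0.29. Its brighter probe stood at 0.66 and -0.32, a mean of 0.17. EXPA4, which is expressed in growing internodes of rice, stood at -0.40 and 0.05 for the brighter probe and at 0.59 and -0.22 for the dimmer, with means of -0.18 and 0.18. The probes of EXPA4 therefore gave no common direction. The other alpha-expansins had means between -0.13 for EXPA29 and EXPA31 and 0.19 for EXPA8. EXPA29 had the arrays far apart, at 2.59 and -2.86 from a spot of 42.6 units.

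The expansin-like A genes resemble expansins in structure and have no known wall-loosening activity. EXLA1 had a bright spot of 3163 units and stood at -0.38 and -0.89, a mean of -0.63 or 1.55-fold lower, at percentile 3.10 of the brightest decile. EXLA3 stood at 0.29 and -0.20, a mean of 0.04. EXLA4 had the arrays 0.96 and -1.82, which oppose each other, and EXLA2 a mean of -0.14. The 3 expansin subfamilies together had a median of -0.18 over 32 probes, with 11 lower and 1 higher on both arrays. These are 34.4% and 3.1%, beside 22.3% and 22.5% of all probes. With median centring, among the expansins only EXPB7 was lower and only the dimmer EXPA10 probe higher on both arrays.

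Cellulose synthases lay close to 0, mostly below it. Their 13 probes of 8 genes had a median of -0.07 and quartiles of -0.18 and -0.02. Both arrays were lower for 3 probes and higher for 1, or 23.1% and 7.69%, beside 22.3% and 22.5% of all probes. The mean was below 0 for 10 of the 13, or 76.9%, against 50.9% of all probes. CESA1, CESA3 and CESA8 are subunits linked to the primary wall of growing cells. The brightest CESA1 probe, at 4113 units, stood at 0.01 and -0.11, a mean of -0.05. CESA3 stood at 0.16 and -0.27, a mean of -0.06, and CESA8 at -0.26 and 0.03, a mean of -0.11. For each of these 3 probes the mean was smaller than the distance of either array from it.

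CESA4 and CESA7, which build the cellulose of secondary walls, gave means of -0.02 and -0.18. CESA4 stood at -0.06 and 0.02, and CESA7 at -0.01 and -0.34. CESA5 stood at -0.53 and -0.28, a mean of -0.40, and both arrays were lower. With median centring the CESA median was -0.19.

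CESA6 showed the widest disagreement between probes of a gene. Its brightest probe, at 1879 units, stood at 0.63 and 0.15, a mean of 0.39. The next stood at -0.22 and 0.08, a mean of -0.07, and the dimmest, at 92.0 units, at -0.76 and -0.54, a mean of -0.65. These means span 1.04 log2 units, although for the brightest and the dimmest probe both arrays agreed in sign. Whether the probes read different transcripts was not tested.

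The other genes with several probes had smaller gaps. The 9 member genes with several probes, 22 probes in all, had a median gap of 0.29 between their highest and lowest mean. That gap was 0.33 over the 1859 genes with several probes on the array. Gaps between probes of unrelated genes were not measured, and the quartiles over all probes were only -0.23 and 0.22. A gap of 0.29 is therefore no sign of good agreement. The smallest gap was 0.10 for CSLF6, the main synthase of mixed-linkage glucan in rice. From the brightest to the dimmest, its 3 probes stood at 0.46 and -0.15, at 0.23 and -0.06, and at -0.46 and 0.56, with means of 0.15, 0.08 and 0.05. The other CESA1 probes stood at 1.22 and -1.4 and at -0.34 and 0.64, with means of -0.09 and 0.15. The CESA2 probes stood at -1.33 and 0.77 and at 1.22 and -1.10, with means of -0.28 and 0.06. In all these probes the arrays opposed each other.

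**Figure D3:**
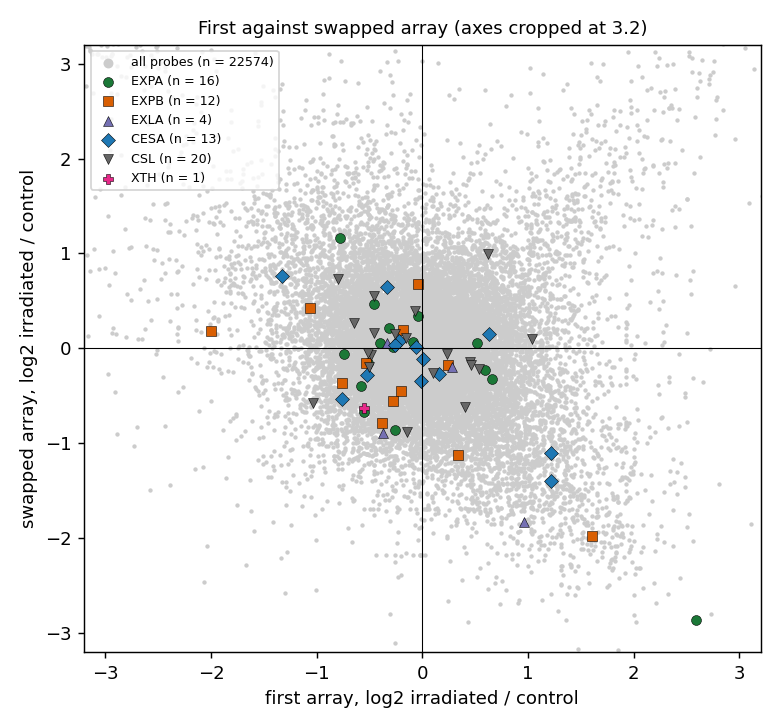
Each point is 1 probe, with log2 irradiated over control on the first array on the horizontal axis and on the swapped array on the vertical axis, and all 22574 probes in grey. Probes in the lower left or upper right agree between arrays, and 20 members lie in the lower left against 4 in the upper right, while 42 lie in the other corners, where the ratio follows the dye.

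Among the CSL genes, which have 20 probes, 5 were lower and 2 higher on both arrays and the median was -0.04. These are 25% and 10%, beside 22.3% and 22.5% of all probes, so the lower share lay near the background. The lowest CSL member was CSLA5, of the mannan synthase family, at -1.04 and -0.58, a mean of -0.81 or 1.75-fold lower. Among the members lower on both arrays it came nearest to 2-fold, and it lay at percentile 1.99 of its decile, with a dim spot of 163.1 units. Without restored common factors in the intensity it stood at -1.10 and -1.06, and it then passed 2-fold on both arrays, as 0.288% of all probes did. With median centring it stood at -1.32 and -0.07.

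The other mannan synthase members were near 0, with CSLA1 at -0.45 and 0.16, a mean of -0.15, and CSLA7 at 0.10 and -0.26, a mean of -0.08. CSLH1, which also makes mixed-linkage glucan, stood at -0.15 and -0.88, a mean of -0.51, from a spot of 546.0 units. CSLF7, of the CSLF family, stood at 0.46 and -0.18, a mean of 0.14. The members of mixed-linkage glucan synthesis thus ranged from CSLH1 at -0.51 to CSLF2 at 0.81.

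CSLC genes, of the xyloglucan backbone, were CSLC1 at -0.79 and 0.73 and CSLC3 at 0.40 and -0.61. Both had opposed arrays, and means of -0.03 and -0.11. CSLD proteins act in tip-growing cells and in cell division, and CSLD1 is needed for root hair growth in rice. Its brighter probe stood at 1.04 and 0.10, a mean of 0.57, and its dimmer probe at 0.54 and -0.21, a mean of 0.16. CSLD2 stood at -0.16 and 0.11, a mean of -0.03, and CSLD5 had a mean of 0.17.

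The products of CSLE proteins are not settled. All 4 CSLE probes, of only 2 genes, had means below 0, as 50.9% of all probes did. Their median was -0.24. The 3 probes of CSLE2 stood, from the brightest, at -0.26 and 0.15, at -0.50 and -0.20, and at -0.65 and 0.26, with means of -0.06, -0.35 and -0.19. CSLE1 stood at -0.48 and -0.07, a mean of -0.28, from a spot of 43.4 units. On the swapped array alone the CSLE median was 0.04, so the direction of this subfamily comes from the first array.

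**Figure D4:**
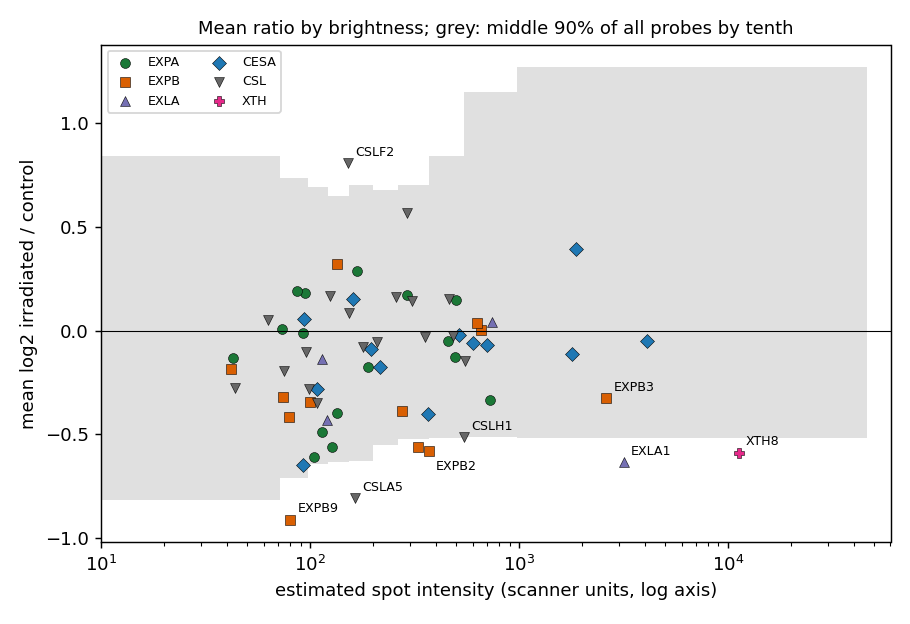
The horizontal axis gives estimated spot intensity in scanner units on a log axis, and the vertical axis the mean log2 irradiated over control of both arrays. Grey marks the middle 90% of all probes in each intensity decile. XTH8 and EXLA1 lie below the grey band among the brightest probes, EXPB2 and EXPB7 below it at 369.5 and 327.9 units, EXPB9 and CSLA5 below it among dimmer spots, and CSLF2 above it at 151.2 units.

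Set against all probes of like brightness, 6 of the 66 members lay among the lowest 5% of their decile and 1 among the highest 5%, where 4.96% and 5.01% of all probes lie by construction. The 6 were XTH8, EXLA1, EXPB2, EXPB7, EXPB9 and CSLA5, and the 1 was CSLF2. Expansins and XTH8 held 5 of the 6 with 33 probes, and CESA and CSL genes held the other one with 33 probes. Of the 5, the arrays of EXPB9 opposed each other.

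The gap between arrays narrowed with brightness, while their correlation did not rise steadily. The turned arrays correlated at r = 0.54 across the 4515 probes of the brightest 2 deciles and at r = -0.28 across all probes, which share the arrays and the dye and are not independent. By decile of brightness r was lowest in the seventh, at -0.58, against -0.53 in the dimmest. EXPB2, EXPB6, EXPB7 and CESA5 lie in the seventh decile. The distance of an array from the mean of both had a median of 0.64 in the dimmest decile and 0.14 in the brightest. Of the members, 31 lay above the median intensity, and 14 in the brightest 2 deciles. Those 14 had a median of -0.09, with 5 lower on both arrays (XTH8, EXLA1, EXPB3, EXPA2 and CSLH1) and 1 higher (the brightest CESA6 probe), beside 28.0% and 27.8% of all probes there. The 5 lower ones are near that background. Above the median intensity the members had a median of -0.06, with 9 lower and 2 higher on both arrays, against 26.0% and 26.5% of all probes there.

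Other genes of the wall, from a list of wall synthesis, remodelling and lignin genes, lay around 0. Of 70 probes, 19 were lower and 22 higher on both arrays, or 27.1% and 31.4% beside 22.3% and 22.5% of all probes, and the median was 0.01. At 2-fold on both arrays 0 were lower and 1 was higher, and at 1.5-fold 0 were lower and 4 higher, or 0% and 5.71% beside 1.62% and 3.77% of all probes. The 2-fold one was UGE-4, of the epimerases that supply UDP-galactose, at 1.10 and 1.15. UGD3, of the dehydrogenases that supply UDP-glucuronic acid, stood at 0.73 and 1.14.

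The other members of that list past 1.5-fold were BC1L9, of the COBRA-like family, at 2.53 and 0.73, which was the highest mean at 1.63, and a probe of the sucrose synthase SUS6 at 1.96 and 0.87. Both spots were dim, at 146.9 and 29.9 units, and the other, brighter SUS6 probe had a mean of -0.08. The lowest was the laccase LAC15 at -2.91 and 0.80, whose arrays opposed each other. The endoglucanase GLU1, which is needed for internode elongation in rice, stood at 0.06 and 0.08. The list matched by spelling and also holds the glutamate receptor GLR3.1, with 3 probes between -0.31 and 0.09.

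Growth hormone genes were likewise spread around 0. Of 41 probes 7 were lower and 9 higher on both arrays, or 17.1% and 22.0% beside 22.3% and 22.5% of all probes, and their median was 0.09. At 1.5-fold on both arrays 2 were lower and 0 higher, or 4.88% and 0% beside 1.62% and 3.77% of all probes. At 2-fold there were 0 and 0. Both lower ones encode early enzymes of gibberellin synthesis. CPS1, which forms the first cyclic precursor, stood at -0.96 and -0.74, a mean of -0.85. KAO, which oxidizes kaurenoic acid, stood at -0.85 and -0.84, so its arrays were nearly equal.

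The highest in that list was GH3-8, of the enzymes that join auxin to amino acids, at 1.63 and 0.50 from a spot of 68.4 units. The brassinosteroid receptor BRI1 stood at -0.23 and -0.68, a mean of -0.45. Kaurene oxidase, which acts between CPS1 and KAO, had its 2 probes under the name OsKO1 at -0.64 and -0.07 and at 0.26 and -0.39. This list too holds genes by spelling alone, such as GIF1, which is a cell wall invertase here, with a mean of -0.33.

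Tissue markers were read only for whether their spots were bright within the array, since levels of different probes cannot be ranked, and this does not test the tissue label. The light-harvesting genes CAB1R and CAB2R and the rubisco activase RCA, markers of green shoot, had spots between 14417 and 31040 units, and 3 of the 10 listed markers were matched by name. Root markers had 8 probes of 6 genes, of 8 listed, between 112.9 and 3415 units, among them the ammonium transporter AMT1 and the silicon transporter LSI1. Of the seed reserve names, GLUA1, GLUA2 and GLB1 were at 111.9, 43.3 and 319.0 units, and RAG, which here belongs to a MADS-box gene, was at 97.2. Green shoot markers had means from -0.37 to 0.26 and root markers from -0.17 to 2.11, and whether a shift in tissue share takes part in the members' values was not tested.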

How the data were processed

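The deposited table holds log10 ratios of the 2 channels of each of 2 arrays, with 22575 probes, 1 value missing, and no filter. Per the series' design text, the authors read the arrays with a GenePix scanner and named GeneSpring version 4 for normalization. The columns had medians of 0.05 and 0.20, so they were treated as not normalized. No source used here gives the background handling or the numerator.

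Each ratio was turned back into its simplest fraction of whole numbers within the 9 printed decimals, and the most likely common factor, up to 59, was restored with the help of the other array. The geometric mean of the terms gave a rough spot intensity. The log10 ratios of an array were then corrected by a loess trend on its intensity (statsmodels 0.14.6, span 0.3, 3 robustness iterations), fitted on all probes, and taken to log2. The fitted trend ran from -0.40 to 0.48 and from -0.21 to 0.68 log10 units. The array with irradiated RNA in Cy3 was turned and both arrays were averaged as 1 replicate. The scripts were tested on simulated data.

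Feature numbers of the platform annotation were converted to table rows by position on the grid (105 by 215 spots), counted column by column and starting at the far corner. So numbered, the intensities of the paired probes of 1690 genes correlated at 0.23, against 0.01 as listed. All 17839 probes with 1 gene matched the RefSeq gene table of assembly ASM3414082v1 by gene number, used for names and gene order. 4715 probes were unnamed here and 21 had several genes. All members were found through synonyms.

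Members and lists were chosen with earlier results of these data known. Named in the text were the extremes of each subfamily, members past 1.5-fold on both arrays or in the brightest 2 deciles, genes with several probes and those nearest 2-fold, then further members by role. With 1 replicate per group no test was run. Alternatives were median centring, intensity without restored factors, a span of 0.6, each array alone, other folds, brighter probes, values per gene, the opposite numerator, an unturned array and the numbering as listed. Membership by current symbol alone left 0 members, and protein identity between members was not analysed here.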

Additional observations from a re-analysis of the deposited data

How the results depend on the processing

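The counts of 0 lower and 0 higher members at 2-fold on both arrays held with a span of 0.6, median centring, brighter probes, values per gene, a 3-fold threshold and the mean of both arrays. Without restored factors 1 was lower, and with the numbering as listed 1 was higher. At 1.5-fold 1 was higher. On the first array alone 4 were lower and 5 higher at 2-fold, and on the swapped array alone 6 and 1. With the swapped array not turned 4 were higher. The shares of all probes in the single-array and unturned settings were not computed at 2-fold, so these counts have no background.

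The count of 20 members lower on both arrays was 5 with median centring, 9 among brighter probes and 14 with the numbering as listed. With the swapped array not turned, where probes agree if the ratio follows the dye, it was 24. It was 44 and 38 on the first and swapped arrays alone, where 11409 and 11114 of all 22574 probes were lower. For the unturned setting no share over all probes was computed. The count of 4 higher was 2 among brighter probes, 2 per gene, 22 and 28 on the single arrays, 18 unturned and 15 with the numbering as listed. Read as Cy3 over Cy5 the counts were 4 lower and 20 higher. The opposite numerator reverses each direction by definition, and the numbering as listed takes other probes. Fewer probes or arrays entered the counts among brighter probes, per gene and on single arrays. Median centring and the unturned setting used the same 66 probes and both arrays. Median centring leaves a dye trend in each array, and the cause of the moves was not tested further.

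The median over all members was -0.24 on the first array alone, 0.11 as Cy3 over Cy5 and 0.0539 with the numbering as listed. With the swapped array not turned it was -0.10, close to the -0.11 of the main setting. In the same order, the expansins together had -0.28, 0.18, 0.0174 and, unturned, -0.0869. The CESA median was -0.19 with median centring, -0.11 on the swapped array and -0.11 per gene. The EXPB median was -0.28 with median centring, -0.24 and -0.27 on the single arrays, all below 0. The CSLF median of 0.11 was -0.0552 on the swapped array. On the first array the CSLA median was -0.45 and the EXPA median -0.30. Of the 66 probe means, 61 moved by less than the SD of their arrays with median centring, 62 without restored factors and 66 with a span of 0.6, while 5, 8 and 1 changed sign. That SD grows with the gap between the arrays, so a mean of opposed arrays passes more easily. These counts are therefore no sign that the values are stable. The counts of any size and the grouping of expansins were added after the data were seen. No paired analysis was possible because both arrays carry the same pair of extracts. Depth is not known from the ratios, and signal over background could not be had.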
